A study of Danio rerio with 12 samples.

Results

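Voltage-gated ion channels open and close with the membrane potential and so set how a neuron fires: sodium channels carry the upstroke of the action potential, potassium channels end it and hold the resting potential, and calcium channels admit the calcium that triggers transmitter release. Each is built from a pore-forming alpha subunit with auxiliary subunits that steer its traffic and gating. In mammals, dopamine neurons fire on their own as pacemakers, which draws on calcium channels, A-type potassium channels, hyperpolarization-activated (HCN) channels and ATP-sensitive potassium channels.

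The channel genes were taken by name: every feature whose name, ignoring case, begins with kcn, cacn, hcn and a digit, or scn and a digit followed by a, b or l, leaving out the epithelial sodium channel. This gave 114 of the 32312 features in each table, of which 67 were potassium, 12 sodium, 31 calcium and 4 HCN channel genes. The name rule also brings in potassium channel genes outside the voltage-gated alpha subunits. They are 8 inward rectifiers, 10 tandem-pore leak channels and 8 calcium- or sodium-activated channel genes. The last 8 hold kcnmb2 and KCNMB3, which encode auxiliary beta subunits. A further 32 genes are other auxiliary subunits of potassium, sodium and calcium channels. The 56 voltage-gated pore subunits (Kv alpha, Nav alpha, Cav alpha1 and HCN) are therefore also given apart. The gene scn12aa begins with scn but falls outside the rule.

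Whole zebrafish embryos and larvae with a GFP transgene for catecholaminergic cells, the cells that make dopamine or noradrenaline, were dissociated and sorted, and the RNA of the cells was sequenced. There were 6 experiments with a GFP-positive and a GFP-negative library in each, so no group had a replicate and no test between groups was possible. At 24 h after fertilization the lines were ETvmat2:GFP, an enhancer trap that at this age marks catecholaminergic neurons of the posterior tuberculum and locus coeruleus, and Tg(otpb.A:egfp)zc48, driven by an otpb element in dopaminergic neurons of the ventral diencephalon and in some preoptic neurons. A th:Gal4VP16 driver with a UAS:EGFP responder served at 36 and 48 h and a th:GFP BAC line at 72 and 96 h. The labels state that the th lines mark catecholaminergic neurons poorly at early ages and that the 24 h lines mark other cells later. The GFP-negative cells of each experiment carried the same transgene and came from the same kind of embryo.

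The depth of the libraries set what could be seen of these genes. The 24 h libraries, made with NanoCAGE from the capped 5′ ends of total RNA, held between 495373 and 1367216 exon reads. The 36 and 48 h libraries, made from amplified polyadenylated RNA, held between 21326333 and 27682819, and the 72 and 96 h libraries between 52869 and 79653. In the catecholaminergic marker list, th (tyrosine hydroxylase, the first enzyme of catecholamine synthesis) had more reads in the GFP-positive than in the GFP-negative library of every experiment, with 272 against 31 reads at 48 h but only 1 against 0 in the otpb pair. The list did not move as one: the vesicular monoamine transporter slc18a2 had 0 reads in GFP-positive and 8 in GFP-negative cells at 36 h. Other cell types moved with the sort as well. The 8 heart markers found summed to 1672 CPM (reads scaled to the library's exon reads) in GFP-positive and 26.3 in GFP-negative cells at 36 h, and to 369 and 25.7 at 48 h. The 11 pan-neuronal markers found summed to 797 against 1667 CPM at 36 h and to 1063 against 1848 at 48 h. This sum was lower in the GFP-positive library of both deep pairs. After the TMM scaling described below, its log2 ratio was -0.32 at 36 h and -0.93 at 48 h. At 36 h elavl3 held 17259 of the 35553 GFP-negative reads. The single markers ran from -0.76 (gng3) to 0.86 (vamp2) at that age, with a median of -0.27. The part of these cell types in the channel results below was not tested, and in sorted bulk RNA a smaller number of expressing cells and less RNA per cell cannot be told apart.

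Many channel genes had few reads. Of the 114, 12 had no read in any of the 12 libraries and 43 had at most 10 reads in all libraries together, against 2339 and 7070 of the 27829 features with an exon length. Among the channel genes only cacnb4b, a calcium channel beta subunit, had a read in all 12 libraries, as did 2861 of those features. At 36 h, 53.5% of channel genes had a read in GFP-positive and 75.4% in GFP-negative cells, against 71.2% and 80.9% of all features. At 48 h the shares were 71.9% and 70.2%, against 81.5% and 78.5% of all features. The channel genes are long, with a median exon length of 2536 bases and a median span of 43.3 kb, against 1721 bases and 11.4 kb over the features with an exon length. The calcium channel genes had the longest median exon length of the 3 larger classes, 4641 bases, and the potassium channel genes the shortest, 1613 bases.

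Channel reads were a small part of every deep library. They summed to 127 CPM in GFP-positive and 217 in GFP-negative cells at 36 h (2883 and 4626 reads). At 48 h they summed to 152 CPM in GFP-positive and 173 in GFP-negative cells (3795 and 4794 reads). The log2 ratio of reads, with the GFP-positive library on top, was taken after TMM scaling, which sets the bulk of genes near 0, and each carries an exact 95% interval for counting error alone. The summed ratio was -0.03 (interval -0.10 to 0.03) at 36 h and -0.33 (-0.39 to -0.26) at 48 h. Scaling on library size alone gave -0.78 and -0.19. The 3 hatching gland markers held 263868 reads in the 36 h GFP-positive library and 473 in the GFP-negative library. The 6 red cell markers found went the other way, with 36329 and 343269 reads. The part of either list in the difference between the scalings was not tested. Library-size scaling moves the 36 h sums by -0.74 and single genes by up to that, so each 36 h ratio given below between 0 and that size, the potassium sum included, turns negative under it, while the 48 h sums move by 0.14.

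**Figure D1:**
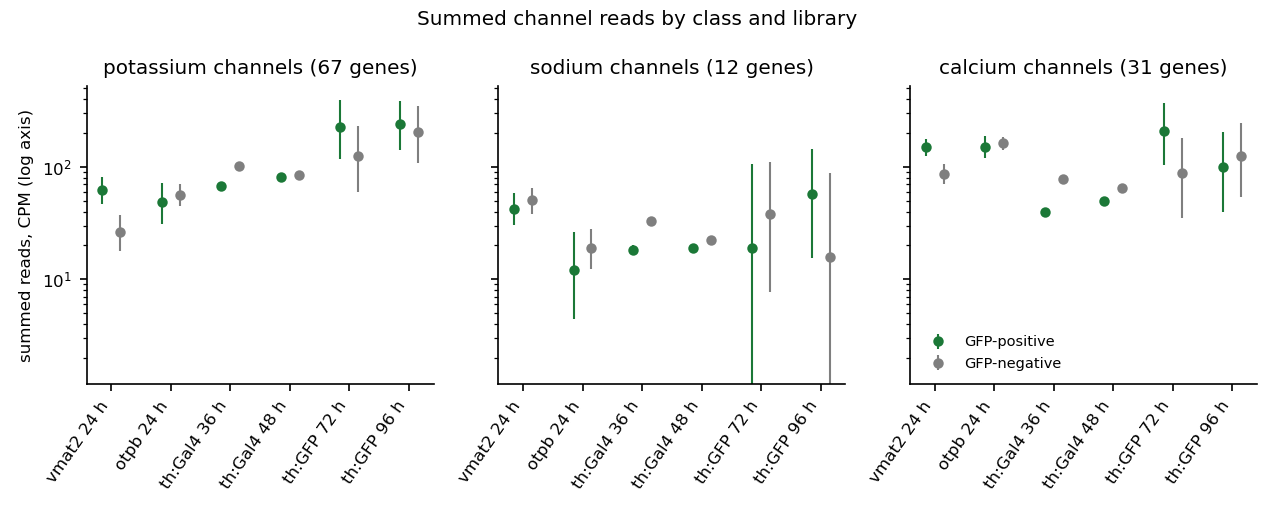
Summed reads of the potassium, sodium and calcium channel genes in CPM (log axis) in each library, GFP-positive in green and GFP-negative in grey, with exact Poisson 95% intervals that are smaller than the points in the deep pairs and run off the lower edge for the sodium sums of 1 read. At 36 h the calcium sum was 39.5 CPM in GFP-positive and 78.0 in GFP-negative cells, before TMM scaling.

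Summed over all genes of a class, the ratios stood in the order potassium, sodium, calcium in both deep pairs, but at 48 h this order depended on which genes were summed. At 36 h potassium channel reads had a log2 ratio of 0.14 (interval 0.05 to 0.24; 1529 and 2171 reads), sodium channel reads -0.10 (-0.28 to 0.08; 418 and 701) and calcium channel reads -0.24 (-0.36 to -0.12; 899 and 1664). At 48 h the ratios were -0.18 (-0.26 to -0.09; 2035 and 2317 reads) for potassium, -0.36 (-0.54 to -0.19; 474 and 614) for sodium and -0.51 (-0.62 to -0.41; 1237 and 1778) for calcium. The 4 HCN genes, nearly all hcn2, were lower still, at -0.63 (-1.23 to -0.07; 37 and 90 reads) at 36 h and -0.78 (-1.32 to -0.26; 49 and 85) at 48 h. Over all genes of a class, the potassium and calcium intervals did not overlap at either age, while the sodium interval overlapped both of the others at each age. The voltage-gated pore subunits alone leave out the leak, inward rectifier and calcium- or sodium-activated potassium channels, which have pores of their own. Over this narrower set the 36 h order held, with -0.05 (-0.17 to 0.08) for potassium and -0.29 (-0.55 to -0.03) for sodium. Calcium stood at -0.31 (-0.58 to -0.04), and its interval overlapped that of potassium. The 48 h order turned round over the same set, with -0.70 for potassium, -0.49 for sodium and -0.19 for calcium. Without kcnk1 and kcnj1 the 48 h potassium ratio was -0.51, equal to that of calcium to 2 decimals.

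The make-up of the channel reads does not depend on scaling. It is taken from the same sums, so its split between potassium and calcium restates theirs. Potassium channels made up 53.0% (exact binomial interval 51.2 to 54.9) of channel reads in GFP-positive and 46.9% (45.5 to 48.4) in GFP-negative cells at 36 h. At 48 h they made up 53.6% (52.0 to 55.2) in GFP-positive and 48.3% (46.9 to 49.8) in GFP-negative cells. Calcium channels made up 31.2% against 36.0% at 36 h and 32.6% against 37.1% at 48 h, and sodium channels 14.5% against 15.2% and 12.5% against 12.8%. With each read taken as independent, the potassium and calcium shares thus differed beyond counting error at both ages and the sodium shares did not. The higher potassium share at 48 h was not seen over the voltage-gated pore subunits alone. There the potassium share was 69.8% in GFP-positive and 73.9% in GFP-negative cells. At 36 h the same subunits gave 68.7% and 64.3%.

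**Figure D2:**
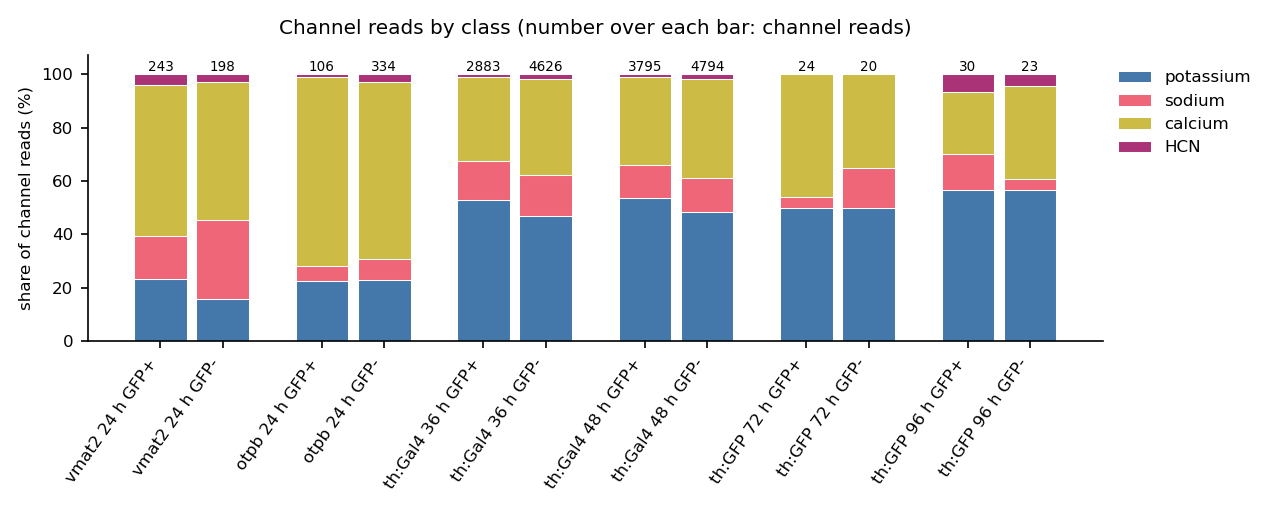
Share of channel reads (%) in each library by class, GFP-positive left of GFP-negative in each pair, with the number of channel reads over each bar. Potassium channels held between 46.9% and 53.6% in the 4 deep libraries, and calcium channels between 51.5% and 70.8% in the 4 NanoCAGE libraries at 24 h.

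Among the potassium channels, the summed reads of the leak and inward rectifier groups were higher in GFP-positive cells. Those of the voltage-gated alpha subunits were not. The leak difference rested largely on kcnk1 at both ages, and the inward rectifier difference on kcnj1 at 48 h. Reads of the 10 tandem-pore leak channels, which hold the resting potential, had a log2 ratio of 0.78 (interval 0.52 to 1.05; 251 and 229 reads) at 36 h and 1.67 (1.42 to 1.94; 516 and 163) at 48 h. The 8 inward rectifiers gave 1.25 (0.87 to 1.63; 150 and 99) at 36 h and 0.33 (0.07 to 0.60; 270 and 216) at 48 h. The 31 voltage-gated alpha subunits gave -0.05 (-0.17 to 0.08; 882 and 1427) at 36 h and -0.70 (-0.82 to -0.58; 947 and 1550) at 48 h. Their 10 auxiliary subunits gave -0.12 (-0.42 to 0.17) and -0.32 (-0.59 to -0.06), and the 8 calcium- or sodium-activated channel genes -0.10 (-0.48 to 0.29) and -0.42 (-0.83 to -0.01). Without kcnk1 and kcnj1, left out after their values were seen, the leak channels came to 0.24 (-0.08 to 0.55) at 36 h and 0.44 (0.07 to 0.82) at 48 h. Without them the inward rectifiers came to 1.03 (0.63 to 1.42) at 36 h and turned to -0.19 (-0.49 to 0.10) at 48 h. Library-size scaling moved the 36 h values of the whole leak and inward rectifier groups to 0.04 and 0.50.

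**Figure D3:**
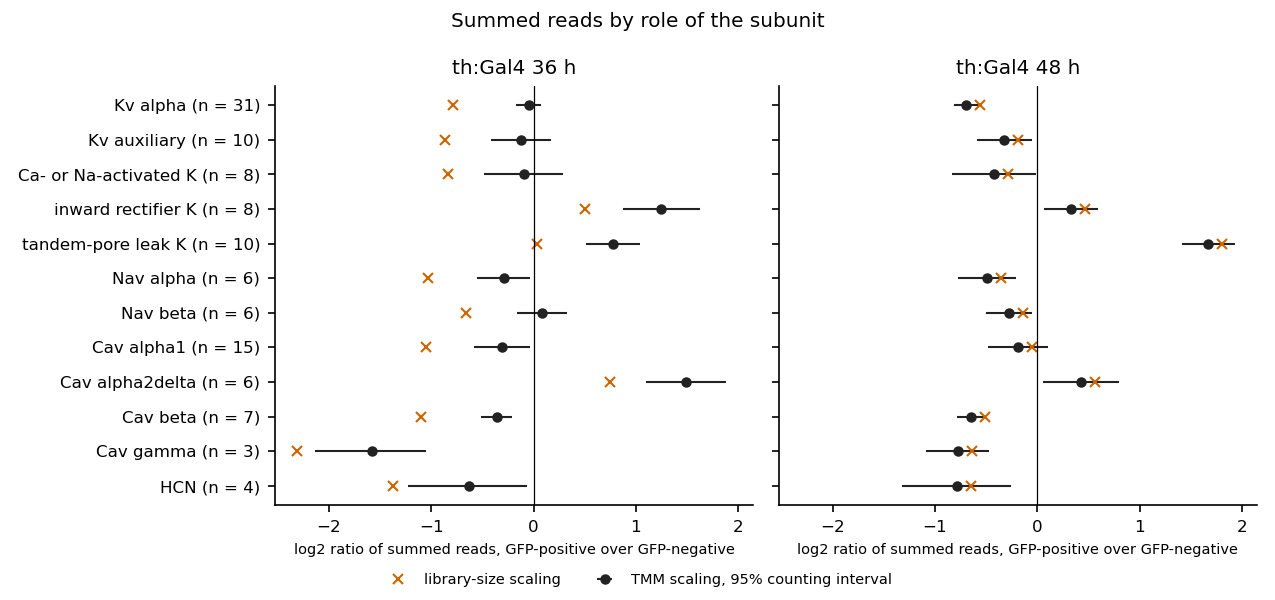
Log2 ratio of summed reads, GFP-positive over GFP-negative, for each kind of subunit at 36 h (left) and 48 h (right), with dots and exact 95% counting intervals under TMM scaling and crosses for library-size scaling. At 48 h the tandem-pore leak channels stood at 1.67, and the Cav gamma and HCN genes at -0.78.

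Calls for single genes were made where the library with the higher level held at least 5 CPM and 20 reads, and a gene was called higher or lower where its log2 ratio, with a prior count of 2, was at least 1 in size and its interval lay on the same side of 0. Few channel genes reached that level: 13 at 36 h, 11 at 48 h, 2 in the otpb pair and none in the vmat2, 72 h and 96 h pairs. At 36 h 1 of 13 was called higher (kcnj11l) and 1 lower (scn2b), against 13.9% and 10.4% of all features considered. At 48 h 1 of 11 was called higher (kcnk1) and 2 lower (cacng2a and kcnc3a), against 17.6% and 6.53%. In the otpb pair cacna1sb was called lower, against 24.3% of features. In the pairs with no channel gene considered, 24.7% of features were called higher and 15.7% lower in the vmat2 pair, 5.06% higher and 22.2% lower at 72 h, and 3.29% higher and 7.02% lower at 96 h. The median log2 ratio of the channel genes considered was -0.12 at 36 h and -0.50 at 48 h, beside -0.09 and -0.08 over all features considered.

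Asking only for 20 reads in the library with the higher level, a rule added after the data were seen, took in 37 channel genes at 36 h and 33 at 48 h. At 36 h 6 were called higher and 5 lower, against 17.5% and 15.3% of the 15198 features. At 48 h 4 were called higher and 6 lower, against 20% and 8.02% of the 15159 features. By class at 36 h, of 15 potassium channel genes 3 were called higher and 0 lower. Of 5 sodium channel genes 1 was higher and 2 lower, and of 16 calcium channel genes 2 were higher and 3 lower. At 48 h the counts were 3 higher and 4 lower of 18 for potassium, 0 and 0 of 3 for sodium, and 1 and 2 of 11 for calcium. A gene that passed only in the library where it was high had to differ, so these counts describe the genes that passed and not all 114. The genes named below that are not called or among the most-read of their class were chosen after their values were seen.

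**Figure D4:**
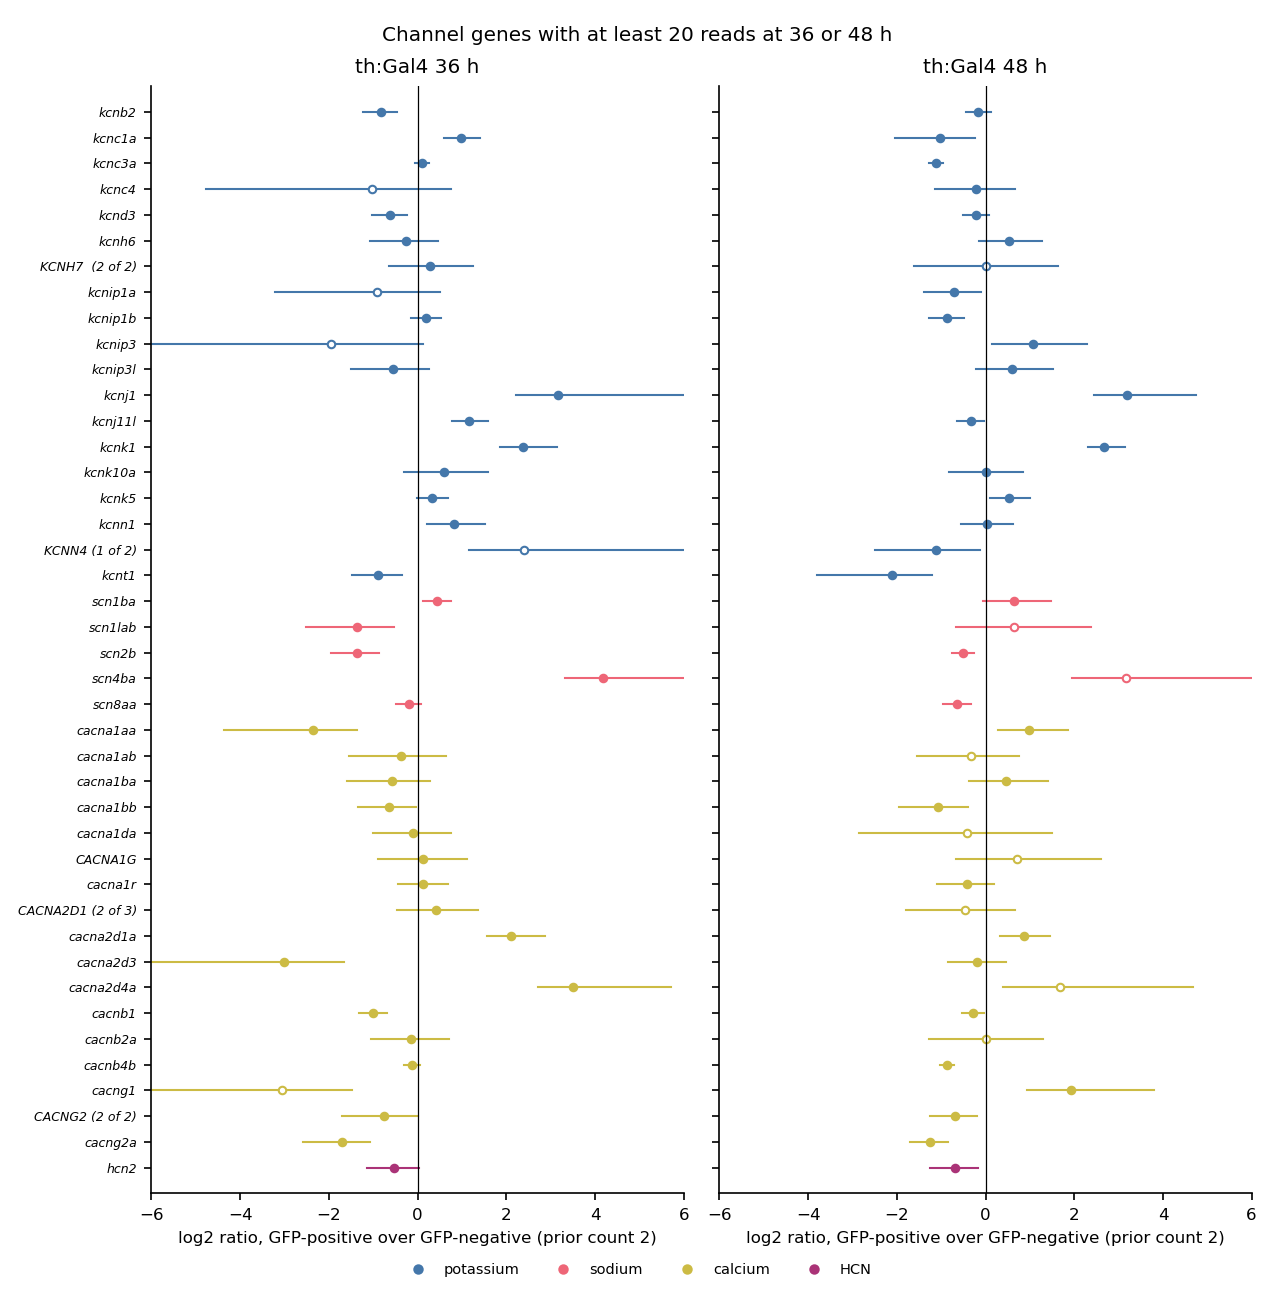
Log2 ratio of GFP-positive over GFP-negative reads (prior count 2) with exact 95% counting intervals, drawn only from -6 to 6, for the 42 channel genes with at least 20 reads in the library with the higher level at 36 h (left) or 48 h (right); filled points have 20 reads at that age and open points fewer. The genes kcnk1 and kcnj1 lie to the right of 0 at both ages, and cacng2a to the left at both.

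The potassium channel gene called higher at 48 h was kcnk1, which encodes a weakly rectifying tandem-pore leak channel and lies on chromosome 12 (Zv9 32369976 to 32379565). It had 373 reads in GFP-positive and 57 in GFP-negative cells at 48 h, a log2 ratio of 2.68 (interval 2.32 to 3.15). At 36 h it had 100 and 28 reads (2.39, 1.87 to 3.14), in the vmat2 pair 9 and 1, at 96 h 0 and 1, and in the otpb pair and at 72 h 0 in both libraries. It was thus higher in the GFP-positive library of all 3 pairs in which it had more than 1 read. Per length, its level was 2.47 RPKM in GFP-positive cells at 48 h, the third highest of all channel genes in that library, and 0.621 RPKM in GFP-positive cells at 36 h.

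The inward rectifier kcnj1, a potassium channel known in mammals from the kidney tubule, where it secretes potassium, followed the same pattern at a lower level. It had 89 reads in GFP-positive and 8 in GFP-negative cells at 48 h (3.20, 2.45 to 4.74) and 24 and 2 at 36 h (3.17, 2.22 to 7.36), and none in the other 8 libraries. Together with kcnk1 it raised the summed potassium ratio at 48 h, which came to -0.51 without both, against -0.18 with them. The 5 markers found of skin ionocytes, the ion-transporting cells of the embryonic skin, also had higher sums in GFP-positive cells of both deep pairs. They summed to 1607 reads in GFP-positive and 427 in GFP-negative cells at 36 h (2.56, 2.41 to 2.72). At 48 h they summed to 5792 and 605 (3.27, 3.15 to 3.39), and all 4 considered were called higher. The 36 h sum was mostly ca2 (1333 and 344 reads), with trpv6 (2.73) and foxi3a (2.43) also higher. At that age foxi3b had 7 and 13 reads (-0.20, -1.81 to 1.19) and slc12a10.2 6 and 7. In the vmat2 pair the same markers had 61 and 11 reads and in the otpb pair 11 and 34. The 3 kidney markers summed to 480 and 283 reads at 36 h and to 261 and 844 at 48 h, but did not move as one. At 36 h cdh17 (179 and 35) and slc4a2a (255 and 105) were called higher, while slc20a1a had 46 and 143. At 48 h the sum was mostly slc20a1a (67 and 709, called lower), while slc4a2a was called higher (175 and 84) and cdh17 had 19 and 51. The part of ionocytes or kidney cells in the kcnk1 and kcnj1 values was not tested.

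The gene with most channel reads at both ages was kcnc3a, a voltage-gated channel of the Shaw family, whose fast closing lets neurons fire at high rates. It lies on chromosome 3 (32098465 to 32197478). It had 443 reads in GFP-positive and 967 in GFP-negative cells at 48 h, a log2 ratio of -1.11 (-1.28 to -0.95), and 544 and 791 reads at 36 h (0.11, -0.05 to 0.27). In the vmat2 pair it had 18 and 2 reads (2.13, 0.83 to 6.05), in the otpb pair 3 and 5, at 72 h 2 and 0 and at 96 h 1 and 3. The direction therefore differed between pairs. At 48 h the call was lost under library-size scaling, where the ratio was -0.98. The pan-neuronal markers had a summed ratio of -0.32 at 36 h and -0.93 at 48 h, and their part in the kcnc3a values was not tested.

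Its relative kcnc1a had 116 and 91 reads at 36 h (0.98, 0.59 to 1.41) and 17 and 37 at 48 h (-1.03, -2.03 to -0.25). The delayed rectifier kcnb2 had 80 and 224 reads at 36 h (-0.83, -1.22 to -0.46) and 198 and 223 at 48 h (-0.16, -0.44 to 0.12). The sodium-activated channel kcnt1 had 37 and 109 reads at 36 h (-0.88, -1.49 to -0.36) and 7 and 37 at 48 h (-2.11, -3.80 to -1.21), with both intervals below 0. In the same group of calcium- or sodium-activated genes, kcnn1 stood the other way at 36 h (0.82, 0.20 to 1.51). It held 50.2% of the reads of the group at 48 h. The calcium-activated channel KCNN4 (1 of 2) had 10 and 1 reads at 36 h (2.40, 1.16 to 9.41) and 10 and 24 at 48 h (-1.11, -2.48 to -0.13). The auxiliary subunit KCNE1 had 0 and 4 reads at 36 h and 19 and 0 at 48 h, at least 6.38-fold higher.

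The A-type channel kcnd3, whose mammalian counterpart paces dopamine neurons, had 78 and 190 reads at 36 h (-0.63, -1.04 to -0.25) and 189 and 220 at 48 h (-0.21, -0.50 to 0.08). Its sister kcnd1 had 10 reads in GFP-positive and 0 in GFP-negative cells of the vmat2 pair, at least 2.75-fold higher against a floor of 3 reads. It stood the other way at 36 h, with 0 and 9 reads. The calcium sensors that bind these channels gave mixed values. Of them, kcnip1b had 121 and 166 reads at 36 h (0.19, -0.16 to 0.54) and 82 and 152 at 48 h (-0.86, -1.29 to -0.48), while kcnip3 had 0 and 7 reads at 36 h and 27 and 12 at 48 h (1.06, 0.15 to 2.30).

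The ATP-sensitive type of inward rectifier was represented by kcnj11l and kcnj11, the pore of a channel that opens when cellular energy falls. At 36 h kcnj11l had 126 reads in GFP-positive and 87 in GFP-negative cells, a log2 ratio of 1.16 (0.78 to 1.59), and at 48 h 159 and 202 (-0.33, -0.64 to -0.03). Library-size scaling put the 36 h ratio at 0.43, below the 2-fold line. Its partners, the sulfonylurea receptors, summed over 4 features to 7 and 50 reads at 36 h (-2.19, -3.58 to -1.04), of which abcc8 held 2 and 38. At 48 h they summed to 36 and 49 (-0.43, -1.10 to 0.22), with an interval that covered 0. In the otpb pair kcnj11 and kcnj13 each had 0 and 11 reads, at least 1.79-fold lower. The leak channel kcnk5 had 122 and 151 reads at 36 h (0.34, -0.02 to 0.69) and 103 and 71 at 48 h (0.54, 0.10 to 1.01).

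The sodium channels were carried by few genes: the 3 with most reads held 86.8% of sodium channel reads at 36 h and 92.9% at 48 h. The pore subunits had a summed ratio of -0.29 (-0.55 to -0.03; 190 and 364 reads) at 36 h and -0.49 (-0.78 to -0.21; 177 and 251) at 48 h. Most of these reads came from scn8aa, the neuronal channel of the axon initial segment, with 161 and 290 reads at 36 h (-0.20, -0.49 to 0.08) and 144 and 227 at 48 h (-0.64, -0.96 to -0.34). Its duplicate scn8ab had 18 and 9 reads in the vmat2 pair and 1 and 8 in the otpb pair. The neuronal sodium channel scn1lab had 12 and 52 reads at 36 h (-1.36, -2.51 to -0.54) and 12 and 7 at 48 h, and the muscle channel scn4ab 10 and 7, and 19 and 9.

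The sodium channel beta subunits, which tether the pore to the cell surface, differed among themselves. At 36 h scn2b had 37 reads in GFP-positive and 153 in GFP-negative cells (-1.36, -1.96 to -0.87), at 48 h 237 and 338 (-0.50, -0.75 to -0.26), and in the vmat2 pair 0 and 17, at least 6.87-fold lower. By contrast scn4ba had 38 and 1 reads at 36 h (4.17, 3.33 to 11.2) and 16 and 0 at 48 h, at least 5.37-fold higher. The pair lies 20.4 kb apart on chromosome 15, scn2b at 12916551 to 12940847 and scn4ba at 12961296 to 12995382, and differed in opposite directions at 36 h. The third, scn1ba, had 153 and 177 reads at 36 h (0.43, 0.12 to 0.76) and 40 and 25 at 48 h (0.65, -0.07 to 1.47). The sodium leak channel nalcn, no member of the voltage-gated set but a partner in setting the resting potential, had 16 and 170 reads at 36 h (-2.65, -3.60 to -2.02) and 146 and 190 at 48 h (-0.36, -0.69 to -0.05). In the other pairs it was read as 7 and 0 (otpb), 1 and 0 (vmat2), 2 and 0 (72 h) and 6 and 3 (96 h).

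**Figure D5:**
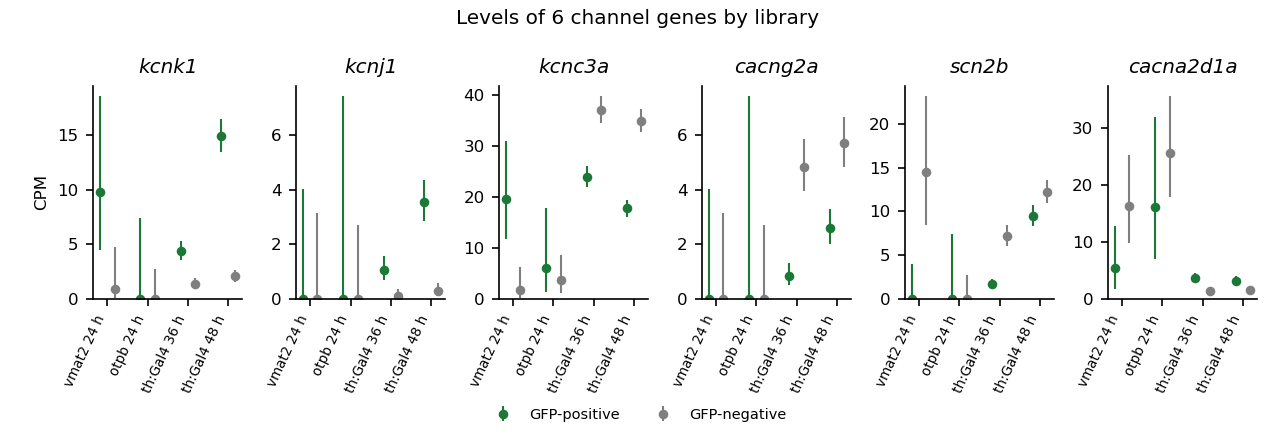
Level in CPM of kcnk1, kcnj1, kcnc3a, cacng2a, scn2b and cacna2d1a in the 24, 36 and 48 h libraries, GFP-positive in green and GFP-negative in grey, with exact Poisson 95% intervals and without TMM scaling. At 48 h kcnk1 stood at 14.9 in GFP-positive and 2.06 in GFP-negative cells, and kcnc3a at 17.7 and 34.9.

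Among the calcium channels, the auxiliary subunits moved apart. The 6 alpha2delta genes, whose products bring the pore to the membrane, had a summed ratio of 1.49 (1.1 to 1.89; 156 and 87 reads) at 36 h and 0.43 (0.06 to 0.80; 144 and 108) at 48 h. The 7 beta subunits, which bind the pore inside the cell, gave -0.36 (-0.51 to -0.21; 532 and 1070) and -0.65 (-0.78 to -0.52; 766 and 1212). The 3 gamma genes gave -1.58 (-2.14 to -1.05; 36 and 168) and -0.78 (-1.09 to -0.47; 143 and 247). The 15 pore subunits gave -0.31 (-0.58 to -0.04; 175 and 339) and -0.19 (-0.48 to 0.11; 184 and 211).

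Of the alpha2delta genes, cacna2d1a had 82 reads in GFP-positive and 28 in GFP-negative cells at 36 h (2.11, 1.56 to 2.87) and 79 and 43 at 48 h (0.86, 0.33 to 1.46). At 24 h it stood the other way, with 5 and 19 reads in the vmat2 pair (-1.81, -3.98 to -0.73). In the otpb pair it had 8 and 35 (-0.99, -2.42 to 0.04), or -0.60 under library-size scaling. Its neighbour on chromosome 4, cacna2d4a, which lies 356 kb away, had 52 and 5 reads at 36 h (3.50, 2.71 to 5.71) and 14 and 3 at 48 h, while cacna2d3 had 1 and 30 reads at 36 h (-3.02, -9.61 to -1.67) and 40 and 46 at 48 h. At 36 h the group therefore held genes of both directions. The heart markers, summed, stood at 6.74 at 36 h, 3.71 at 48 h, 1.97 in the vmat2 pair and -0.15 in the otpb pair. The otpb sum was mostly ttna, with 792 and 2157 of its 1042 and 2362 reads. Of the 5 heart markers considered in that pair, 3 were called higher and 0 lower, with a median log2 ratio of 1.05. The part of the heart markers in the cacna2d1a values was not tested.

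The beta subunit cacnb4b was the highest channel gene per length in all 4 deep libraries. At 36 h its level was 3.33 RPKM (interval 3.01 to 3.68) in GFP-positive and 5.80 RPKM (5.37 to 6.26) in GFP-negative cells, and at 48 h 4.35 RPKM (3.97 to 4.76) and 7.17 RPKM (6.70 to 7.67). Its log2 ratio of reads was -0.12 (-0.31 to 0.06) at 36 h and -0.86 (-1.03 to -0.70) at 48 h. The muscle-type beta subunit cacnb1 had 110 and 346 reads at 36 h (-1.0, -1.33 to -0.69) and 259 and 318 at 48 h (-0.28, -0.53 to -0.04), and in the otpb pair 18 and 12 (1.43, 0.48 to 2.80). After cacnb4b, the next channel genes per length in GFP-positive cells were scn1ba (2.54 RPKM, 2.16 to 2.98), kcnc1a (1.75, 1.44 to 2.10) and kcnc3a (1.72, 1.57 to 1.87) at 36 h, the last pair overlapping in their intervals, and scn2b (3.15, 2.77 to 3.58) and kcnk1 (2.47, 2.23 to 2.74) at 48 h. A level of 3.33 RPKM lay above 81.5% of all features with an exon length in its library.

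The gene cacng2a encodes stargazin, which in mammals guides AMPA-type glutamate receptors to synapses rather than serving calcium channels alone. It had 19 and 103 reads at 36 h (-1.71, -2.58 to -1.08) and 65 and 158 at 48 h (-1.25, -1.71 to -0.85), lower in GFP-positive cells of both deep pairs. Its other copy CACNG2 (2 of 2) had 17 and 47 reads (-0.77, -1.71 to 0.01) and 50 and 83 (-0.70, -1.26 to -0.20). The muscle gamma subunit cacng1 had 0 and 18 reads at 36 h, at least 3.83-fold lower, and 28 and 6 at 48 h (1.92, 0.93 to 3.80). The 11 skeletal muscle markers found had a summed ratio of -0.17 at 36 h and 1.42 at 48 h, but did not move as one. At 36 h they ran from -1.21 (tnnt3b) to 0.56 (ckma), with 1 of the 10 considered called lower and 0 higher. At 48 h 6 of the 10 considered were called higher and 0 lower, while pvalb2 stood at -0.01. The part of these markers in the cacng1 values was not tested.

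At 24 h, where NanoCAGE counts 5′ ends rather than whole transcripts, calcium channels were the largest class in all 4 libraries. Calcium channels made up 56.4% of channel reads in GFP-positive and 51.5% in GFP-negative cells of the vmat2 pair, and 70.8% and 66.2% in the otpb pair. In the otpb pair the pore subunits had 34 and 145 reads (-1.06, -1.65 to -0.51), or -0.63 (-1.21 to -0.08) under library-size scaling. The largest part was cacna1sb, the voltage sensor of skeletal muscle contraction, with 5 and 56 reads (-2.19, -4.13 to -1.15). The 11 skeletal muscle markers found had 382 and 1879 reads (-1.27, -1.43 to -1.11). Of the 8 considered, 3 were called lower and 0 higher. Library-size scaling put cacna1sb at -1.82 and the marker sum at -0.83. The part of these markers in the cacna1sb value was not tested. In the same pair cacna1bb, an N-type channel of nerve endings, had 0 and 17 reads, at least 2.77-fold lower, and cacna1da, of the L type that paces mammalian dopamine neurons, 0 and 18, at least 2.94-fold lower.

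In the vmat2 pair the calcium pore subunits stood at 0.57 (0.06 to 1.1; 90 and 50 reads). There CACNA1G, a low-threshold T-type channel, had 14 and 0 reads, at least 3.85-fold higher, and cacna1c, the L-type channel of heart and brain, 14 and 2 (1.81, 0.41 to 5.71). The N-type cacna1ba had 15 in each. The T-type CACNA1H (1 of 3) had 8 and 7 reads, and the beta subunit cacnb2a 9 and 10. Voltage-gated potassium alpha subunits were also higher in that pair, with 34 and 7 reads (2.00, 0.81 to 3.42), most of them from kcnc3a and kcnd1. Sodium channels as a class made up 16.1% (11.7 to 21.3) of channel reads in GFP-positive and 29.8% (23.5 to 36.7) in GFP-negative cells. Markers of other cells moved with the sort in this pair: the leukocyte list had 1420 and 8 reads (7.20, 6.21 to 8.41), the heart list 3098 and 655 (1.97, 1.84 to 2.09), and the neural progenitor and glia list 207 and 678 (-1.99, -2.22 to -1.76). Their part in the channel values of the vmat2 pair was not tested.

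At 36 and 48 h the P/Q-type gene cacna1aa, a channel of fast transmitter release, had 5 and 50 reads at 36 h (-2.35, -4.36 to -1.36) and 45 and 22 at 48 h (0.98, 0.28 to 1.85). The N-type cacna1bb had 30 and 75 reads at 36 h (-0.65, -1.34 to -0.05) and 22 and 49 at 48 h (-1.08, -1.94 to -0.39), with both intervals below 0. For cacna1da the reads were 19 and 32 at 36 h (-0.10, -1.01 to 0.76) and 4 and 6 at 48 h. The most-read calcium pore subunit at both ages was cacna1r, with 22.8% of the reads of that group at each. Its ratio at 36 h was 0.12 (-0.44 to 0.68).

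The HCN pacemaker channels were nearly all hcn2, with 37 and 85 reads at 36 h (-0.53, -1.15 to 0.02) and 47 and 77 at 48 h (-0.68, -1.26 to -0.16). In the vmat2 pair hcn2 had 5 and 6 reads and hcn4, the main pacemaker channel of the heart, 5 and 0. No hcn4 read was found in the 4 deep libraries. HCN2 (1 of 2), the second hcn2 copy, had 0 and 4 reads at 36 h and 2 and 8 at 48 h, and HCN3 (1 of 2) 1 read in all.

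At 72 and 96 h the tables were too shallow for single channel genes. The 114 genes together had 24 reads in GFP-positive and 20 in GFP-negative cells at 72 h (0.63, -0.29 to 1.56) and 30 and 23 at 96 h (0.14, -0.69 to 0.99), or 0.85 and 0.24 under library-size scaling. No channel gene had more than 5 reads in any of these 4 libraries, and a difference between classes was not detectable at this depth.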

How the data were processed

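Cells sorted as GFP-positive or GFP-negative from whole zebrafish were profiled by NanoCAGE at 24 h and by amplified mRNA sequencing at 36 to 96 h, per the labels' protocols. The sheet names put the tables on the Zv9 build, while the aligner is not given in the sources used here. Of the vmat2 pair the authors deposited counts of total and unique exon reads per feature, per the file headers, with exon lengths and positions. In every table the authors deposited a difference and a signed fold change of RPKM between both libraries, taken here as scores with no fixed range. Only the vmat2 headers name the libraries, so 174 columns of library values in the other 5 tables were tied to no sample and not used, and their whole reads were worked out from the difference and fold change. To within 0.02 of a whole number, 100.0% of values came out whole in each of the 12 libraries, and in the vmat2 pair all of 17237 compared features equalled the deposited count. The direction of the vmat2 table, GFP-positive minus GFP-negative, was taken for the others. If one followed the opposite convention, its directions would turn. A feature with a difference of 0 was set to 0 reads.

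Reads were scaled within each pair with TMM in edgeR 4.0.16 (R 4.3.3). The log2 ratio always has the GFP-positive library on top, with a prior count of 2 for single genes and none for sums. Intervals are exact (Clopper-Pearson for ratios and shares, Poisson for levels) at 95%. They cover counting error only, since each group has 1 library, and take each read as independent. Reads carry no molecular identifiers, so copies of 1 molecule cannot be told apart and the intervals may be too narrow. RPKM levels are the authors' values, worked back from the deposited columns. Where 1 library had 0 reads the fold was taken against a floor of 3 reads. With 1 library per group the values compare libraries, no p-value was computed, and no condition can be separated from its library. Other scalings, minima and subsets of genes were tried with Python 3.11.15. Simulated reads were drawn with counting error alone and few changed genes. On them the scaling and intervals recovered known ratios at the 48 h depth. At the 72 h depth TMM set unchanged genes somewhat too low, so library-size values stand beside the 72 and 96 h ratios. The 36 h pair was not simulated, and such reads cannot decide which scaling suits the real pairs.

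The genes, lists and rules were chosen with earlier results of these data known. Genes named are those called, up to 12 in each direction, and the 3 of each class with most reads in each pair. Any other was chosen after its values were seen. Duplicate genes and features that split 1 gene may share reads: KCNN4, for example, has 2 features on chromosome 16. In the vmat2 pair 97.9% of channel exon reads in GFP-positive and 97.0% in GFP-negative cells were unique.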

Additional observations from a re-analysis of the deposited data

Results flagged for a closer look

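5 of the 114 channel genes had an interval on opposite sides of 0 at 36 and 48 h, in the same transgenic line. No minimum of reads was asked for here. The same count was not made over all features, so whether these genes are many or few for such a set is not known. For each the difference was not tested, since each age has 1 library per group. KCNN4 (1 of 2) had a log2 ratio of GFP-positive over GFP-negative reads of 2.40 at 36 h and -1.11 at 48 h, on 10 and 1 and on 10 and 24 reads. The P/Q-type calcium channel cacna1aa stood at -2.35 at 36 h and 0.98 at 48 h, on 5 and 50 and on 45 and 22 reads. The muscle gamma subunit cacng1 had 0 and 18 reads at 36 h and stood at 1.92 at 48 h, on 28 and 6 reads. The potassium channel kcnc1a stood at 0.98 at 36 h and -1.03 at 48 h, and kcnj11l at 1.16 and -0.331. Under library-size scaling the interval covered 0 at 48 h for KCNN4 (1 of 2) (-0.99) and kcnj11l (-0.20) and at 36 h for kcnc1a (0.25).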

How the results depend on the processing

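No paired analysis was possible because each group has 1 library in each experiment. Library-size scaling added 0.63 (vmat2), 0.43 (otpb), -0.74 (36 h), 0.14 (48 h), 0.23 (72 h) and 0.10 (96 h) to every log2 ratio of summed reads, and less to single genes with few reads, while the median of ratios changed no call and left all 29 class sums within their intervals. Under library-size scaling the sum over all channel genes was 0.65 in the vmat2 pair, -0.19 in the otpb pair, -0.78 at 36 h and -0.19 at 48 h. The potassium sum at 36 h turned to -0.60 and was -0.0408 at 48 h, the sodium sum at 36 h was -0.84, and the calcium sums were -0.98 and -0.38. The voltage-gated pore subunits alone leave out the leak, inward rectifier and calcium- or sodium-activated potassium channels. Over them the sums for all classes together were 0.47 (vmat2), -0.98 (otpb), -0.14 (36 h), -0.62 (48 h) and 1.69 (72 h). The 72 h value rested on few reads, with 7 and 2 for potassium, 0 and 2 for sodium and 3 and 0 for calcium. By class the same subunits gave -0.0463 (turned) and -0.70 for potassium at 36 and 48 h, -0.29 for sodium at 36 h and -0.19 for calcium at 48 h. Without the most-read gene of each class the 48 h sums were 0.0389 for all channels and 0.25 for potassium, both turned, and -0.24 for calcium. Without kcnk1 and kcnj1, a choice made after seeing the data, potassium came to 0.0402 at 36 h and -0.51 at 48 h, and all channels to -0.49 at 48 h, and the inward rectifier sum at 48 h turned to -0.19. The causes were not tested.

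Counts of called genes at 36 h, 1 higher and 1 lower, became 0 and 5 under library-size scaling, 0 and 0 with 10 CPM and 50 reads, 10 and 12 with no minimum, 0 and 0 with the minimum on the mean, and 6 and 5 at 20 reads. A prior count of 0.5 gave 2 lower. At 48 h, 1 higher and 2 lower became 9 and 7 with no minimum and 4 and 6 at 20 reads. The lower count was 1 under library-size scaling, under the stricter minimum and under the minimum on the mean. Shares over all features were taken only under the main rule and at 20 reads. Whether the other counts are many or few for such a set is therefore not known. The potassium share at 36 h was 68.7% in GFP-positive and 64.3% in GFP-negative cells over the voltage-gated pore subunits. It was 56.1% and 49.3% without the most-read genes. At 48 h it was 69.8% and 73.9% over pore subunits, and 61.3% and 53.0% without the most-read genes. Depth limits the 24 h pairs to sums of few reads and allows no statement on single channel genes at 72 and 96 h.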
